A study of Homo sapiens with 6 samples.

Results

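Cholesterol and fatty acids are made by enzymes whose genes are controlled together by the sterol regulatory element binding proteins (SREBPs). In Panc-1 cells with and without TGFβ, 36 genes of this programme and of cholesterol transport and export were followed. They comprised 18 enzymes of sterol synthesis, 8 genes of fatty acid and lipid synthesis, 5 regulators, 3 genes of cholesterol transport inside the cell and 2 cholesterol exporters. A gene was measured through every probe set of the array whose annotation names that gene alone. Such probe sets were found for 33 of the 36 genes, 77 probe sets in all, among 19777 genes that the array covers in this way. FDFT1, CYP51A1 and FADS1 were not analysed here. At least 1 probe set reached a mean signal of 100 (6.64 on the log2 scale) in 1 or both groups for 31 genes, which are called measured below, among 10115 such genes on the array. The exporter ABCG1 and the fatty acid elongase ELOVL6 stayed below this limit in both groups.

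Panc-1 is an established human cell line of pancreatic adenocarcinoma, and 3 arrays of untreated cells were compared with 3 arrays of cells given TGFβ, a cytokine that loosens epithelial cells from their neighbours and makes them motile (epithelial-mesenchymal transition). Per the labels, treated cells received 5 ng/mL porcine TGFβ for 48 h after 24 h without serum, whereas the study's methods state 5 nM, and which dose is right is not settled here. The protocol with serum starvation is attached to the untreated samples as well, so both groups are taken to have lacked serum, the usual source of lipoproteins in culture. The labels say that the experiment was repeated 3 times and no more about separate cultures, so the p-values measure the spread between these arrays, which may be partly technical. All cells were of 1 line and 1 time point, and the labels give no genetic change.

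SREBPs are made as precursors in the membrane of the endoplasmic reticulum, where SCAP escorts them to the Golgi for cleavage when sterols are scarce and INSIG proteins hold the complex back when sterols are plentiful. SREBF2 encodes SREBP-2, known mainly for sterol synthesis genes, and SREBF1 encodes the SREBP-1 forms, known mainly for fatty acid synthesis genes. Sterols in excess also act through the liver X receptors (LXRs), which raise the exporters ABCA1 and ABCG1, SREBF1 itself and the ubiquitin ligase gene MYLIP. An array reads messenger RNA, so neither the cleavage of SREBPs nor the sterol content of the cells was measured.

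With TGFβ the enzymes of sterol synthesis mostly rose, the exporter ABCA1 rose by 1.20 on the log2 scale (0.64, less than FDPS, with its probe sets below the signal limit averaged in), and SREBF1 and the sterol reductase gene TM7SF2 fell. Of the 31 measured genes, 18 rose, 4 fell and 9 did not pass the test, which was limma with a Benjamini-Hochberg adjusted p under 0.05. TGFβ moved much of the genome in these cells, and the counts stand beside a background of 27.7% of all tested genes higher and 31.0% lower, 58.7% in either direction. The 3 treated arrays lay wholly above the 3 untreated ones for 19 members and wholly below for 4, beside 32.7% and 35.5% of all genes. A rise of at least 1.5-fold was found for 5 members and a fall of that size for 2, beside 6.20% and 7.22%. The median log2 fold change of the 31 genes was 0.24, and that of all genes tested was -0.013.

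The roles did not move alike. Among 16 measured sterol synthesis enzymes 12 rose, 1 fell and 3 did not pass, with a median log2 fold change of 0.44. The methods' paired t-test, adjusted in the same way, called 7 sterol enzymes higher. That test called fewer genes across the array, as given further on, so the limma backgrounds above do not apply to its count. Its own share of genes higher is not given, so the 7 have no background. Of 3 transport genes 2 rose, with a median of 0.37 over all 3. Among 6 fatty acid genes 2 rose, 1 fell and 3 did not pass (median 0.17), and among 5 regulators 1 rose, 2 fell and 2 did not pass (median 0.072), both shares of rises being near the background. Differences between roles were not tested.

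**Figure D1:**
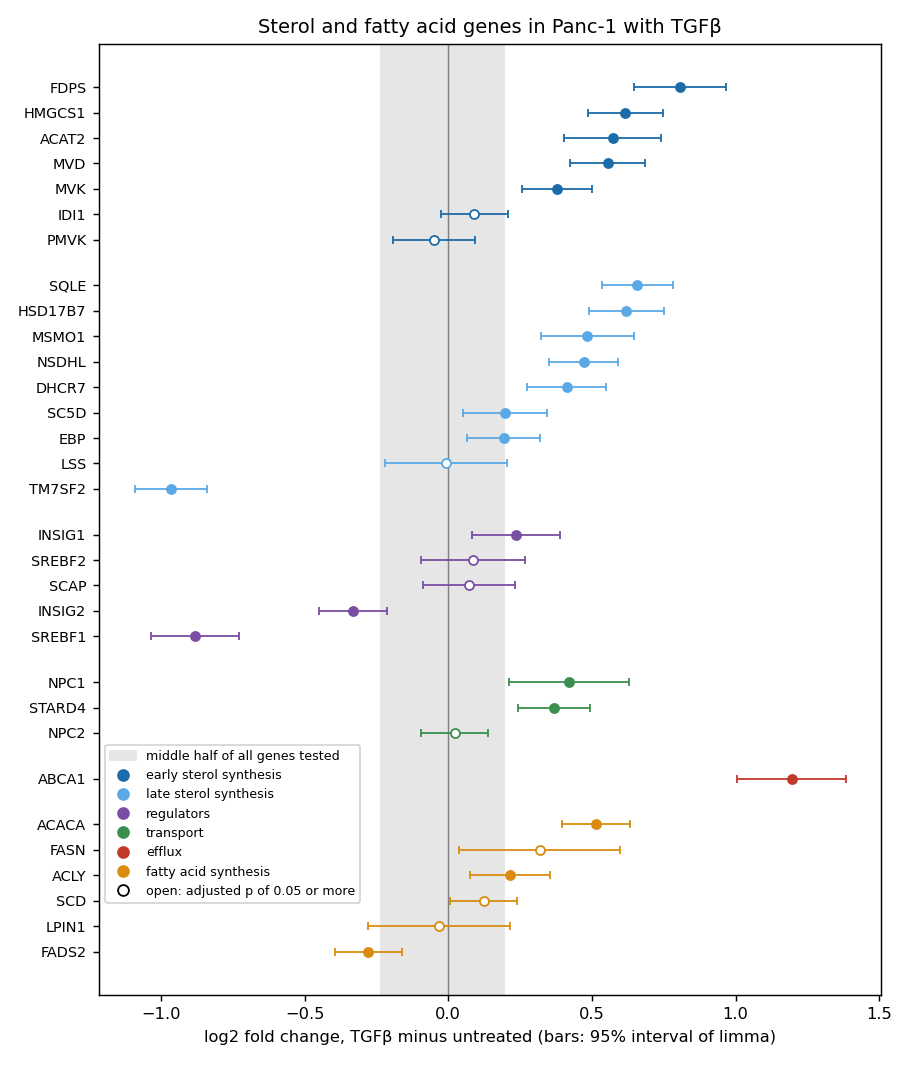
Log2 fold change (TGFβ minus untreated, x axis) of the 31 measured genes, ordered by role on the y axis, with the 95% interval of limma as bars, filled points for an adjusted p under 0.05 and open points for others. The grey band runs between the quartiles of all 10115 genes tested, from -0.23 to 0.19, and 11 of the 16 sterol synthesis enzymes lie to the right of it.

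Averaged over its 16 enzymes, sterol synthesis had log2 levels of 9.75, 9.84 and 9.80 on the untreated arrays and 10.14, 10.11 and 10.08 on the treated arrays, a difference of 0.31. For the 6 fatty acid genes the untreated means were 10.25, 10.20 and 10.28 and the treated means 10.43, 10.32 and 10.41, a difference of 0.14. The groups of arrays did not overlap in either case, but the shift of the sterol enzymes was the wider. Within sterol synthesis the mean moved by 0.42 for the 7 early enzymes and by 0.23 for the 9 late ones, the latter including the fall of TM7SF2. The means of the 3 transport genes moved by 0.27 and those of the 5 regulators by -0.16, again without overlap. The regulators' mean includes the fall of SREBF1 by 0.88, while their median change was 0.072, with 3 positive and 2 negative.

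**Figure D2:**
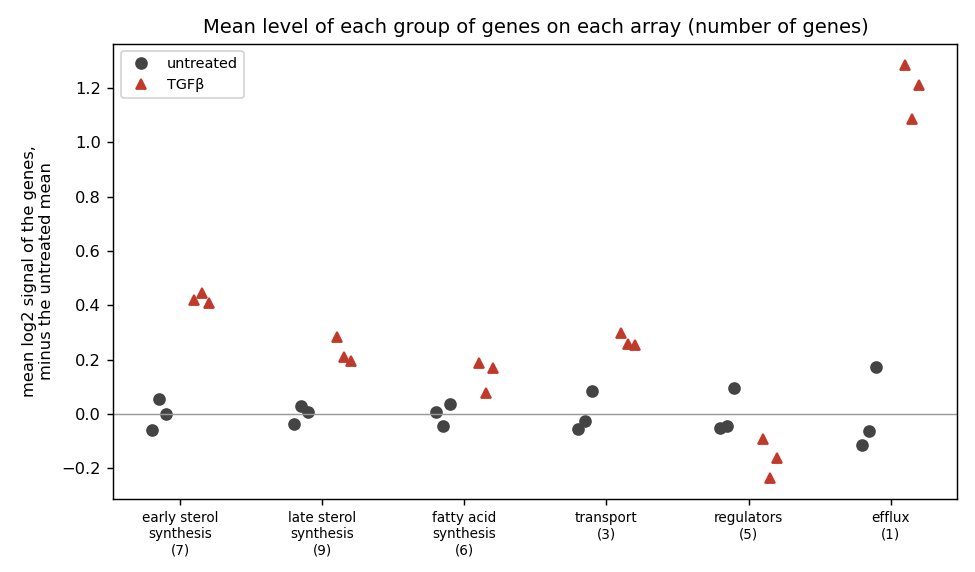
Mean log2 signal of the genes of each role on each array, minus the mean of the 3 untreated arrays (y axis), for 6 roles (x axis, number of genes in brackets), with grey circles for untreated and red triangles for TGFβ arrays and each symbol 1 array. The treated arrays lie above the untreated ones in 5 roles, by 0.14 for fatty acid synthesis up to 1.20 for efflux, which is ABCA1 alone. They lie below them for the regulators, a mean that includes the large fall of SREBF1.

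The early enzymes build the isoprenoid chain that becomes squalene, from acetyl-CoA by way of mevalonate. Of the 7 measured, 5 rose, none fell, and PMVK and IDI1 did not pass. FDPS, whose product farnesyl diphosphate is shared by sterols, dolichol, ubiquinone and prenylated proteins, read 11.65, 11.77 and 11.81 on the log2 scale without TGFβ and 12.61, 12.54 and 12.50 with it. Its lowest treated array was above its highest untreated one, and the rise was 1.75-fold (log2 0.81, SE 0.065, adjusted p = 0.000191). HMGCS1, which makes HMG-CoA, read 10.10, 10.41 and 10.24 without TGFβ and 10.79, 10.96 and 10.84 with it, 1.53-fold higher (log2 0.62, SE 0.053, adjusted p = 0.000236). Its 2 probe sets rose by unequal amounts, 0.95 and 0.28, although their mean levels were close.

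ACAT2, the cytosolic thiolase that joins the first acetyl units, read 11.37, 11.53 and 11.55 without TGFβ and 12.12, 12.03 and 12.02 with it. The groups were clear of each other, 1.49-fold apart (log2 0.57, SE 0.069, adjusted p = 0.000844). MVD, which decarboxylates mevalonate diphosphate, was dim and close to the signal limit, with 6.90, 6.90 and 6.82 untreated and 7.37, 7.53 and 7.38 treated, and rose 1.47-fold (log2 0.55, SE 0.054, adjusted p = 0.000385). Mevalonate kinase, MVK, rose by 0.38 (SE 0.050, adjusted p = 0.00125) as the mean of 3 probe sets that each rose, and by 0.21 in the brightest of them. Between these enzymes in the chain, phosphomevalonate kinase PMVK had a log2 difference of -0.049 (SE 0.058, adjusted p = 0.499) with overlapping groups. The isomerase IDI1 had 0.091 (SE 0.048, adjusted p = 0.153). All 3 of its tested probe sets had names ending in _x_at, a class that can match several sequences. The 2 brightest differed by 0.15 and 0.20, of which the latter passed, and a dimmer one, at the signal limit, by -0.073. When probe sets under a signal of 200 were left out, IDI1 passed at 0.17 (adjusted p = 0.0188).

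The late enzymes turn squalene into cholesterol through lanosterol. Of 9 measured, 7 rose, TM7SF2 fell, and the cyclase LSS did not pass. Squalene epoxidase, SQLE, which puts the first oxygen on the chain and is a known control point of the pathway, read 9.62, 9.59 and 9.56 without TGFβ and 10.29, 10.30 and 10.15 with it. The rise was 1.58-fold (log2 0.66, SE 0.051, adjusted p = 0.000160), and each of its 3 tested probe sets rose, by 0.50 to 0.76. LSS, which closes the rings to give lanosterol, differed by -0.0081 (SE 0.087, adjusted p = 0.941), with a 95% interval of -0.22 to 0.20, so that changes of the size seen in SQLE lay outside it.

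The removal of methyl groups at carbon 4 of the sterol takes MSMO1, NSDHL and HSD17B7, and all 3 rose. MSMO1, the oxidase, rose by 0.48 (SE 0.067, adjusted p = 0.00142), and NSDHL, the dehydrogenase, by 0.47 (SE 0.049, adjusted p = 0.000491), with 0.66 and 0.29 in its 2 probe sets. HSD17B7, the ketoreductase, read 9.57, 9.69 and 9.69 untreated and 10.28, 10.29 and 10.25 treated, 1.54-fold higher (log2 0.62, SE 0.053, adjusted p = 0.000238). This last value rests on 1 probe set with a name ending in _x_at, a class that can match several sequences, and HSD17B7 has a near-identical pseudogene, so its assignment is uncertain.

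At the end of the pathway DHCR7, which makes cholesterol from 7-dehydrocholesterol, rose by 0.41 (SE 0.057, adjusted p = 0.00139), by 0.46 and 0.37 in its 2 probe sets. The isomerase EBP rose by 0.19 (SE 0.053, adjusted p = 0.0209), and the call ended without replicate 2 (adjusted p = 0.0509) or without replicate 3 (adjusted p = 0.130). The desaturase SC5D rose by 0.20 (SE 0.060, adjusted p = 0.0314) and lost its call without replicate 1 (adjusted p = 0.0598) or replicate 3 (adjusted p = 0.138). Its 2 probe sets disagreed, the bright one rising by 0.54 (SE 0.073) and the dim one, near the signal limit, reading lower by a difference of -0.15 (SE 0.069) that did not pass.

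TM7SF2 went the other way. It encodes a sterol reductase that acts on the carbon 14 double bond, and it read 9.80, 9.90 and 9.82 without TGFβ and 8.88, 8.86 and 8.88 with it. The treated arrays were nearly equal and far below the untreated ones, a 1.95-fold fall (log2 -0.97, SE 0.051, adjusted p = 4.07e-05). The lamin B receptor LBR, a protein of the inner nuclear membrane with the same reductase activity, fell as well, from 10.21 ± 0.044 to 9.92 ± 0.14 (SD, n = 3; log2 -0.29, SE 0.078, limma adjusted p = 0.0202). Both genes listed for this step were thus lower, while 7 other late enzymes were higher.

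**Figure D3:**
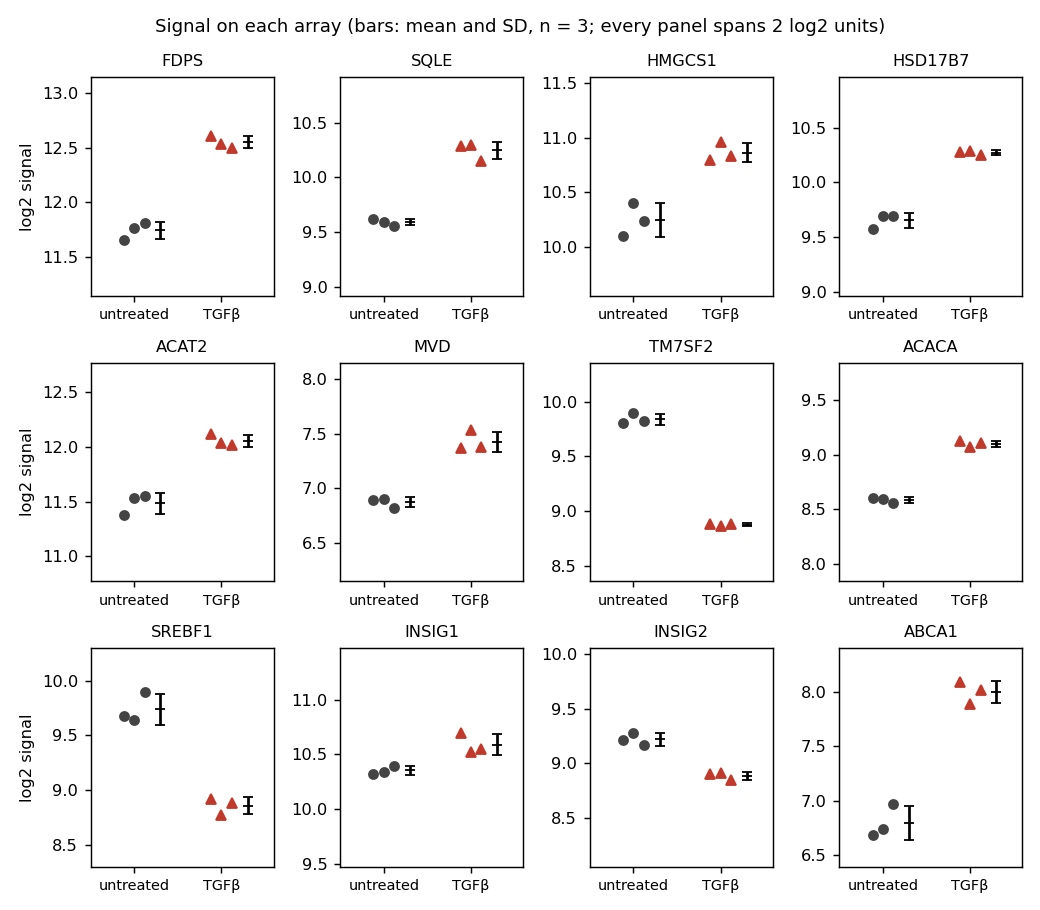
Log2 signal (y axis, each panel 2 units tall) of 12 members on the 3 untreated arrays (grey circles) and the 3 TGFβ arrays (red triangles), with the mean and SD (n = 3) as bars to the right of each group. In every panel the groups are apart, from 0.24 between means for INSIG1 to 1.20 for ABCA1, with TM7SF2, SREBF1 and INSIG2 lower after TGFβ.

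The start regions of these genes were read from RefSeq (GRCh38.p14) because so many enzymes moved together. SREBPs are known to act at a sterol regulatory element with the factors NF-Y, which binds CCAAT boxes, and SP1, which binds GC boxes. Windows from 250 bases before to 50 after each start were available for 31 of the 36 genes, and none for ACAT2, FDFT1, SQLE, ABCG1 and FASN. The stretches below are from members with the largest changes among the synthesis genes, upstream of the start, 5′ to 3′ on the strand of the gene, and where a gene has several windows the one with most matches is shown. Capitals mark the CCAAT box and the GC box, GGGCGG, both also as their reverse complements, and the sterol regulatory element, searched as TCACNCCAC, where it was present.

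FDPS (plus strand, chr1:155308680-155308859), HMGCS1 (minus strand, chr5:43313498-43313635), MVD (minus strand, chr16:88663162-88663300) and HSD17B7 (plus strand, chr1:162790577-162790664) are shown as the sterol enzymes with the largest rises for which a stretch can be given:
FDPS: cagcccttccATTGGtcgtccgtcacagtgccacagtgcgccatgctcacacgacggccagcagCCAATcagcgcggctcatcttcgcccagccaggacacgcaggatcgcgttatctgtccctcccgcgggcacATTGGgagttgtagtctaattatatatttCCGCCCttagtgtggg
HMGCS1: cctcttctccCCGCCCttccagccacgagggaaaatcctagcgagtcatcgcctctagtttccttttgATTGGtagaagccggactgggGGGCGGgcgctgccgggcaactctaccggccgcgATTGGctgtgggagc
MVD: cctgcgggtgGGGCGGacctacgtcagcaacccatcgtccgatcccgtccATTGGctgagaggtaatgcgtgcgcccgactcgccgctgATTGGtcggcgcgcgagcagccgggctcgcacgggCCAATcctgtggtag
HSD17B7: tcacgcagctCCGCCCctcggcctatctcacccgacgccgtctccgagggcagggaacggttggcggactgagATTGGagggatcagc

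TM7SF2 (plus strand, chr11:65111711-65111846) is shown as the sterol enzyme that fell, and ACACA (minus strand, chr17:37359125-37359346), described further on, as the fatty acid enzyme that rose most:
TM7SF2: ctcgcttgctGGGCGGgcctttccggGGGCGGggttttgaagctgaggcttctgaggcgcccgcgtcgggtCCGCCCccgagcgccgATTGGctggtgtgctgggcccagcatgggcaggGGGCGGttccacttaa
ACACA: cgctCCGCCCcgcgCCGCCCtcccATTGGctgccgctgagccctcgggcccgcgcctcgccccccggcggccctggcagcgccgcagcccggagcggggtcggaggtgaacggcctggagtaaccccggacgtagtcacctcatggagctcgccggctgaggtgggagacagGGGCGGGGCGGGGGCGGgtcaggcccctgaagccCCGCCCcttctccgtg

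SREBF2 (plus strand, chr22:41832962-41833104) was added after its sequence had been searched, as the 1 member with a sterol regulatory element by the letters used, at bases -133 to -125 from the start:
SREBF2: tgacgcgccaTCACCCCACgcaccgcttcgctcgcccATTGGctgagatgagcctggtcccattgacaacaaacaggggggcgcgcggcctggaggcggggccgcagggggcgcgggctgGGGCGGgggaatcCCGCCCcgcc

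FDPS and MVD each have 3 CCAAT boxes in these stretches, HMGCS1 has 2, and HSD17B7, TM7SF2 and ACACA have 1 each. The number of boxes thus did not set TM7SF2, which fell, apart from every enzyme that rose. On either strand, CCAAT was found in 21 of the 31 members with a window (67.7%) and in 13 of 15 sterol enzymes (86.7%), beside 39.7% of 27305 genes in RefSeq and 43.7% of the 8450 tested genes with a window. It was present in 10 of 10 sterol enzymes with a window that rose, and in 4 of 7 fatty acid genes. Among measured sterol enzymes that did not rise, TM7SF2, LSS and IDI1 had it and PMVK did not. GGGCGG was found in 30 of 31 members, and in 79.6% of tested genes. The E-box CACGTG, another site SREBPs can bind, was found in 5 members (ABCA1, INSIG1, LSS, SC5D and SCAP), and in 13.3% of tested genes. TCACNCCAC was found in SREBF2 alone, beside 1.38% of tested genes. Sterol regulatory elements with other letters, or outside the window, would not be found by this search, so their absence was not shown. These counts describe letters in a window of 300 bases, and none of them was tested. Genes with several starts have several windows and so more chance of a match.

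Among the regulators SREBF1 fell, INSIG2 fell, INSIG1 rose, and SREBF2 and SCAP did not pass. SREBF1 read 9.68, 9.64 and 9.90 without TGFβ and 8.92, 8.77 and 8.88 with it, through 1 probe set past the limit. The groups were well apart, a 1.84-fold fall (log2 -0.88, SE 0.063, adjusted p = 0.000116), and the log2 difference was -0.54 when a dim probe set below the limit was averaged in. The annotation names the gene and not its transcripts, so the SREBP-1 forms were not separated. SREBF2, by contrast, differed by 0.085 (SE 0.074, adjusted p = 0.359) with overlapping groups. Its 2 tested probe sets pointed in opposite directions, at -0.098 and 0.27, and the latter passed although its arrays overlapped between the groups. SCAP, the escort of both, differed by 0.072 (SE 0.065, adjusted p = 0.380).

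The 2 INSIG genes, which encode the anchors that keep the SCAP complex in the endoplasmic reticulum, moved in opposite directions. INSIG1, itself a well-known SREBP target, read 10.32, 10.34 and 10.40 without TGFβ and 10.70, 10.52 and 10.55 with it (log2 0.24, SE 0.063, adjusted p = 0.0186). The groups were apart by a narrow gap, and the call ended without replicate 2 (adjusted p = 0.0538). Of its 3 probe sets the dimmest rose from 9.50 ± 0.024 to 9.96 ± 0.018 (SD, n = 3 arrays), a log2 difference of 0.47 (SE 0.053). The others differed by 0.18 and 0.068 and did not pass, so the gene's value depends on which is read. INSIG2 read 9.21, 9.28 and 9.17 without TGFβ and 8.90, 8.92 and 8.85 with it, a fall of 1.26-fold (log2 -0.33, SE 0.048, adjusted p = 0.00178) in every treated array.

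The transport genes serve cholesterol that has entered the cell. NPC1, the lysosomal membrane protein that passes cholesterol out of the lysosome, rose by 0.42 (SE 0.086, adjusted p = 0.00677) in its 1 probe set past the limit. Averaged with 3 dim probe sets, which lay between 3.60 and 5.29 in both groups, it differed by 0.14 and no longer passed (adjusted p = 0.185). Its soluble partner NPC2 differed by 0.022 (SE 0.048, adjusted p = 0.715), with a 95% interval of -0.094 to 0.14. STARD4, a carrier that moves cholesterol between membranes and is known as an SREBP target, rose by 0.37 (SE 0.051, adjusted p = 0.00154).

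Efflux was measured through ABCA1, the transporter that loads cholesterol onto apolipoprotein A-I, and it showed the largest rise of the 31 genes at the signal limit used. It read 6.69, 6.74 and 6.97 without TGFβ and 8.09, 7.88 and 8.01 with it. All treated arrays were above all untreated ones, 2.29-fold apart (log2 1.20, SE 0.077, adjusted p = 8.16e-05). One of its probe sets passed the limit only through the treated group, where it was high (6.23 to 7.66, a difference of 1.43), whereas another was past it in both (7.37 to 8.33, a difference of 0.96). With 2 further probe sets below the limit averaged in, the value was 0.64, less than the 0.81 of FDPS.

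ABCG1, the companion exporter that loads particles of high density lipoprotein, lay below the limit in all 4 of its probe sets. The brightest in untreated cells read 5.77, 5.79 and 6.38 without TGFβ and 4.50, 4.47 and 4.45 with it. The other 3 differed by -0.48, -0.74 and -0.34, and in each of the 4 the treated arrays were below the untreated ones. Averaged over the 4 probe sets the levels were 5.15 untreated and 4.38 treated. Signals this dim are given as values, with no call at the limit used. Without the limit this mean was called lower (-0.76, SE 0.060, limma adjusted p = 0.000201), although every probe set in it was dim. Of 6 other genes of efflux and LXR signalling listed beside them, 2 were measured and both fell, beside 31.0% of all genes tested. MYLIP fell by 0.52 on the log2 scale (SE 0.052, adjusted p = 0.000419), and the receptor partner RXRA by 0.38 (SE 0.069, adjusted p = 0.00446). RXRA did not pass with its dim probe set averaged in (-0.12, adjusted p = 0.255). Below the limit, the receptor gene NR1H3 (LXRα) read 5.97 untreated and 6.31 treated and the transporter gene ABCA7 6.44 and 6.11, given as values with no call, so the dim genes of these lists did not all lie on the side of ABCG1.

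The fatty acid genes gave a mixed picture. ACACA, the acetyl-CoA carboxylase that makes malonyl-CoA in the committed step of the synthesis, read 8.60, 8.59 and 8.55 without TGFβ and 9.12, 9.07 and 9.11 with it. The groups were clear of each other, 1.43-fold apart (log2 0.51, SE 0.049, adjusted p = 0.000346). Its 2 probe sets did not move alike, however. The dim one read 7.08, 7.21 and 6.79 untreated and 7.89, 7.93 and 7.90 treated, a difference of 0.88, and the bright one had 0.15 (SE 0.070), which did not pass. ACLY, which makes cytosolic acetyl-CoA from citrate, rose by 0.22 (SE 0.057, adjusted p = 0.0187). It had 0.33, 0.26 and 0.059 in its 3 probe sets, and the call ended without replicate 2 (adjusted p = 0.107).

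Fatty acid synthase itself, FASN, read 10.18, 10.10 and 10.67 without TGFβ and 10.80, 10.45 and 10.65 with it. Untreated replicate 3 lay within the range of the treated arrays, so the groups overlapped, and the difference of 0.32 (SE 0.12, adjusted p = 0.0544) did not pass. Without replicate 3 it was 0.49 (adjusted p = 0.00283), and without replicate 1 it was 0.17 (adjusted p = 0.132). SCD, the stearoyl-CoA desaturase, differed by 0.12 (SE 0.048, adjusted p = 0.0659). Its treated arrays were all above the untreated ones in the gene mean, and its 4 probe sets ranged from -0.11 to 0.25. The brightest, at -0.11, had all treated arrays below the untreated ones and did not pass, whereas those at 0.25 passed. FADS2, the desaturase at carbon 6 of polyunsaturated fatty acids, fell by 0.28 (SE 0.048, adjusted p = 0.00342), and by 0.15 with no call (adjusted p = 0.189) when a dim probe set was averaged in. It was lower with TGFβ in each of the 3 same-numbered sets of arrays, which were not shown to be pairs. The groups were barely apart, with a lowest untreated array of 9.53 and a highest treated one of 9.52. Without the replicate block the SE was 0.099 and the limma adjusted p 0.0388.

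LPIN1, a phosphatidate phosphatase and coregulator, differed by -0.032 (SE 0.10, adjusted p = 0.805). ELOVL6, which lengthens palmitate, was below the limit in its 3 probe sets, the brightest of which read 5.89, 5.82 and 5.80 without TGFβ and 5.33, 5.07 and 5.06 with it. These arrays did not overlap, and its other probe sets, at 3.74 to 3.92, differed by -0.17 and -0.015.

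Where a gene had several probe sets they often differed in size. Of the 77 member probe sets, 56 were tested, and 31 rose, 4 fell and 21 did not pass, beside 55.1% of all probe sets called in either direction. The share of all probe sets in each direction is not given, so the 31 and the 4 have no background by direction. The 4 that fell were the single tested probe sets of TM7SF2, SREBF1, INSIG2 and FADS2. No member had 1 probe set that rose and another that fell. For 15 members only 1 probe set was tested, so that agreement within the gene could not be examined.

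**Figure D4:**
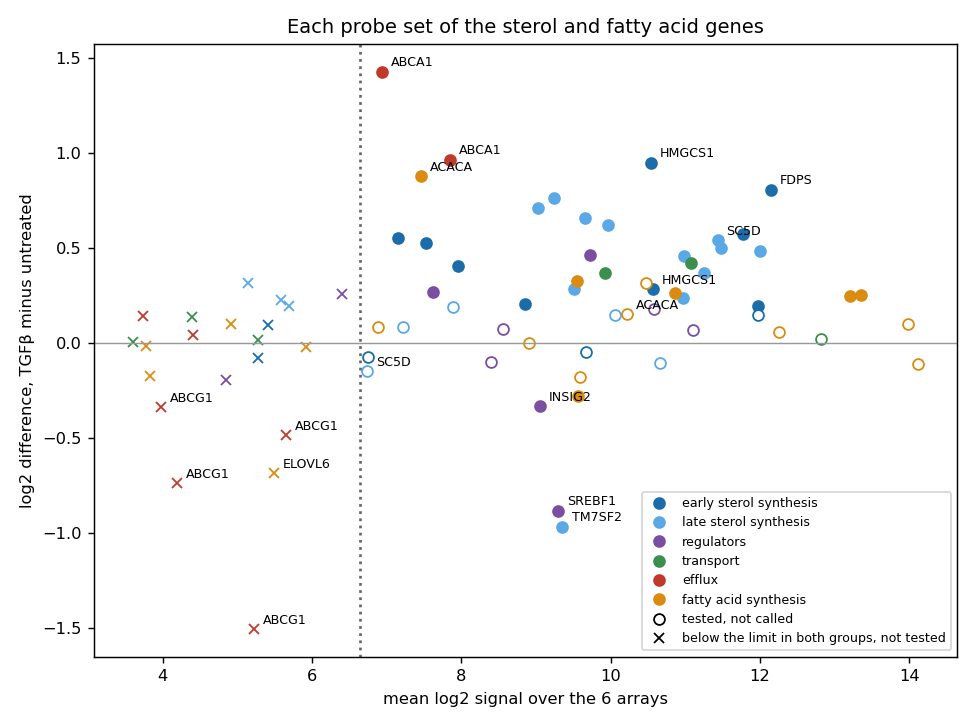
Log2 difference (TGFβ minus untreated, y axis) of each of the 77 member probe sets against its mean log2 signal over the 6 arrays (x axis), coloured by role, with filled circles for probe sets that passed (adjusted p under 0.05), open circles for tested ones that did not, and crosses for those below the signal limit in both groups (dotted line, 6.64). The 4 probe sets of ABCG1 lie left of the line and below 0, at -0.34 to -1.50, and the pairs of HMGCS1, SC5D and ACACA lie far apart on the y axis.

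A list of 63 further genes of these pathways gave 46 measured, of which 17 rose and 12 fell, with a median log2 fold change of 0.072, shares close to the 27.7% and 31.0% of all genes tested. These backgrounds apply to each smaller list below. In the list around sterol synthesis 6 of 9 rose and 2 fell, namely COQ2 (-0.35, SE 0.10), which feeds the isoprenoid chain into ubiquinone, and LBR. The largest rises there were in DHDDS, a subunit of the enzyme that extends farnesyl diphosphate to dolichol (0.59, SE 0.051), and TMEM97, a sterol-responsive protein that binds NPC1 (0.45, SE 0.047). Of 6 genes of lipoprotein uptake and sterol handling 5 rose, led by SCARB1, the receptor for high density lipoprotein, from 8.51 ± 0.13 to 9.22 ± 0.12 (SD, n = 3; log2 0.71, SE 0.083, limma adjusted p = 0.000752). NCEH1, a cholesteryl ester hydrolase, rose by 0.31 (SE 0.085), the caveolar protein gene CAV1 by 0.20 (SE 0.049), LIPA, the lysosomal acid lipase, by 0.18 (SE 0.047), and the lipoprotein receptor LRP1 by 0.16 (SE 0.048). The oxysterol binding protein gene OSBP fell by 0.19 (SE 0.051).

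The other genes of SREBP regulation included 3 rises and 2 falls among 7 measured, beside 27.7% and 31.0% of all genes. ERLIN2, a membrane protein of the endoplasmic reticulum that binds the SREBP complex, fell from 7.84 ± 0.085 to 6.90 ± 0.13 (SD, n = 3; log2 -0.94, SE 0.077, limma adjusted p = 0.000202), while its relative ERLIN1 rose by 0.24 (SE 0.052). RNF139, a ubiquitin ligase, fell by 0.27 (SE 0.048), and SPRING1, which is needed for SREBP cleavage, and the ubiquitin ligase RNF145 rose by 0.24 (SE 0.058) and 0.20 (SE 0.049). Neither MBTPS1 (-0.19, adjusted p = 0.0699) nor MBTPS2 (-0.11, adjusted p = 0.118), the proteases that cut SREBPs, passed. In the further fatty acid list 3 of 15 rose and 3 fell, both less than the shares over all genes. Malic enzyme ME1, a cytosolic source of NADPH, rose from 9.69 ± 0.033 to 10.57 ± 0.083 (SD, n = 3; log2 0.88, SE 0.052, limma adjusted p = 5.86e-05). ACSL4, a fatty acyl-CoA ligase, rose by 0.51 (SE 0.14) and MID1IP1, an activator of acetyl-CoA carboxylase, by 0.25 (SE 0.056). The mitochondrial acetyl-CoA carboxylase ACACB fell by 0.46 (SE 0.064), with 1 of its 4 probe sets past the limit in the untreated group alone, and by 0.30 with its dim probe sets averaged in. The elongase ELOVL7 fell by 0.41 (SE 0.069) and HACD3 by 0.23 (SE 0.049). Of 7 glycerolipid genes none rose, and LPIN2 (-0.20, SE 0.067) and the lipid droplet protein gene PLIN2 (-0.22, SE 0.047) fell. Without the signal limit, 22 of the further genes were called in place of 29, SCARB1 rose by 0.33 and ERLIN2 fell by 0.62. Among the genes named, RXRA, COQ2, LIPA, LRP1, OSBP, RNF145, SPRING1, ACSL4 and PLIN2 then no longer passed, nor did LPIN2, whose value stayed at -0.20 while its adjusted p moved from 0.0398 to 0.0744. Calls gained were those of the lipoprotein receptor VLDLR (0.90, from 4.95 to 5.85), NR1H3 (0.33), ABCA7 (-0.33) and OXSM (-0.23), all below the limit in both groups.

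The 6 arrays were close in overall level, with medians of 5.14 to 5.21 and correlations over genes of at least 0.9951 within a group and 0.9495 to 0.9528 between groups. Of 6 epithelial markers 4 fell with TGFβ, KRT8 from 11.45 to 9.27 on the log2 scale, KRT18 from 13.03 to 11.78, EPCAM from 8.62 to 7.82 and CDH1 from 7.58 to 5.56, past the limit in untreated cells only. KRT7 differed by 0.24 and did not pass (adjusted p = 0.0569), and KRT19 was below the limit in both groups. The part of these shifts in the results above was not tested. Also below the limit were all measured markers of acinar, endocrine, leukocyte, fibroblast and endothelial cells. In RNA from whole cultures a lower level may come from fewer cells that express a gene or from less RNA in each, and these cannot be told apart. The 3′ minus 5′ control signal of ACTB was 0.55 ± 0.031 in untreated and 0.33 ± 0.060 in treated arrays (log2, SD, n = 3), and that of GAPDH was -0.0096 ± 0.0096 and -0.028 ± 0.023. The GAPDH values overlapped between the groups. Whether RNA quality differed, and the part of the ACTB difference in the results above, was not tested.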

How the data were processed

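The measurement was gene expression in 6 Panc-1 samples on Affymetrix Human Genome U133 Plus 2.0 arrays. The deposited values, 1 per probe set and array, were on a log2 scale, as read from their range. The authors' software and normalisation before deposit are not given in the sources used here. Of 54675 probe sets, 62 controls were left out, and 41091 of the others named exactly 1 gene in the platform's annotation, with symbols updated through RefSeq. As in the study's methods, a mean signal below 100 in both groups removed a probe set, which kept 19101. A gene was the mean of its remaining probe sets.

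The functions lmFit and eBayes of limma 3.58.1 (R 4.3.3) tested TGFβ minus untreated, two-sided, over 10115 genes and separately over probe sets. Replicate numbers entered as a block, since the methods describe a paired test. Prior degrees of freedom were 4.12, beside 2 residual. SE is the model's standard error, and p-values were adjusted by Benjamini-Hochberg over all features. The number of arrays limits the precision. The workflow was tested on simulated data with far fewer changed genes than here and no replicate effect, so it does not show how calls hold in these data. Motifs were counted in Python 3.11.15 with pandas 2.3.3, and plots were drawn with matplotlib 3.10.9.

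The members, the lists of further genes and the rule for naming were chosen with earlier results of these data known. All members were accounted for, with values by array for those called with a log2 change of at least 0.5 and for called regulators and exporters. From each further list the 3 called genes with the largest changes were named, and all where a count was 5 or fewer. Probe-set values by array of ABCG1, ELOVL6, ACACA and FASN, and the genes VLDLR, NR1H3, ABCA7 and OXSM, were added after their values had been seen. Alternatives covered the block, the signal filter, normalisation, a constant of 16, the variance model, _x_at probe sets, the choice of probe set, each replicate left out, a threshold of 0.01 and the methods' t-test.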

Additional observations from a re-analysis of the deposited data

How the results depend on the processing

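Across 13 alternatives refitted for each gene, 15 to 20 members were called higher and 4 or 5 lower, and the median of all genes stayed between -0.032 and 0.013. The exceptions lay in the threshold and in the tests themselves. At a limma adjusted p under 0.01, the calls of EBP (0.0209), SC5D (0.0314), INSIG1 (0.0186) and ACLY (0.0187) ended. The methods' t-test with Benjamini-Hochberg adjustment called 2337 of 10115 genes in place of 5934, and 14 of 31 members in place of 22. It called 11 members higher in place of 18 and 7 sterol enzymes higher in place of 12. At an unadjusted p under 0.05 it called 4835 genes and 20 members, 16 higher and 4 lower. The t-test's share of all genes in each direction is not given, so its member counts by direction have no background. With the brightest probe set standing for each gene, the median of the fatty acid genes was -0.025 in place of 0.17, while that of the sterol enzymes was 0.43. Leaving out 1 replicate at a time gave sterol medians of 0.38 to 0.47 and 10 or 11 sterol enzymes higher.

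Same-numbered arrays were not shown to be pairs, since the correlations of their deviations from the group means were -0.289, 0.242 and 0.0597. Without the replicate block 6265 genes and 23 members were called, 19 higher and 4 lower, SCD being added (adjusted p = 0.0319), and 36 member probe sets in place of 35.

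Among members, a sign turned only where the gene had not passed. LSS was 0.069 without the signal filter and -0.13 to 0.073 with 1 replicate left out. SREBF2 was -0.098 and SCD -0.11 with the brightest probe set. With 1 replicate left out PMVK ranged from -0.10 to 0.0017, SREBF2 from -0.0056 to 0.17, SCAP from -0.0047 to 0.13 and LPIN1 from -0.19 to 0.051. Calls ended for FADS2 (-0.15), NPC1 (0.14) and SC5D (0.20) without the signal filter, for EBP (0.19) and SC5D (0.20) under median centring, and for INSIG1 (0.068), ACLY (0.059) and ACACA (0.15) with the brightest probe set. Calls gained without the signal filter included ABCG1 (-0.76, limma adjusted p = 0.000201) and ELOVL6 (-0.29, limma adjusted p = 0.0107), both below the limit in both groups. FASN passed under 6 alternatives, at 0.28 to 0.49. The causes were not tested. Members near the signal limit (MVD, ABCA1) and below it (ABCG1, ELOVL6) are limited by signal over background.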
